A study of Homo sapiens with 13 samples.

Results

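The genes described here are targets of the transcription factor NRF2 and genes of xenobiotic metabolism, taken from a list of 39 symbols. A member was measured where a probe set of the array names that gene alone by the platform annotation. If there were several, the brightest on average was taken. This gave 35 members among the 11963 genes measured, and AKR1B1, SRXN1, FTH1 and MGST1 were not analysed here. RNA of human non-small cell lung carcinoma cell lines had been hybridised to 13 Affymetrix arrays. The 4 control arrays held non-metastatic cells, 2 without and 2 with a luciferase reporter. The other 9 held 3 lines, M1, M4 and M5, with 3 arrays each, which had been recovered from bone after control cells were injected into the hearts of mice. Whether these lines carry the reporter, whether a line is 1 clone, and the culture conditions are not given in the labels. Each array held a pool of 3 groups of cells, and the p-values below measure only the spread between such pools.

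NRF2, encoded by NFE2L2, is held in the cytoplasm and marked for degradation by KEAP1. When electrophiles or oxidants modify KEAP1, NRF2 accumulates, pairs with a small MAF protein such as MAFG and binds antioxidant response elements near its targets. Those targets make glutathione, reduce quinones, carbonyls and peroxides, supply NADPH and conjugate foreign compounds, and the pathway is often active in lung carcinoma. Lower levels of a transcript per cell and fewer cells that hold it cannot be told apart in such pools.

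The antioxidant response element has the core TGACNNNGC, which was searched on both strands in the 250 bases before each start site in the RefSeq promoter table (build GRCh38.p14). Of the 35 members, 27 were matched there by symbol, and AKR1B10, CES1, CYP1B1, CYP24A1, GSR, HMOX1, PRDX1 and SLC7A11 were not. At least 1 match was present in 12 of these 27 members (44.4%), in 16% of 9563 genes on the array that have an entry, and in 10.9% of all 35116 promoters of the same length. The related AP-1 motif TGANTCA was present in 4 of the 27 (14.8%) and in 7.13% of the 9563 genes, and in 6.57% of all promoters. A match describes letters and is no evidence of binding. The windows below show the matches in capitals for GSTA4, which differed between the lines, for KEAP1, and for 4 members that stand for glutathione synthesis, conjugation, NADPH supply and thioredoxin reduction. Each reads 5′ to 3′ on the strand of its gene.
GSTA4, chr6:52995285-52995323, minus strand: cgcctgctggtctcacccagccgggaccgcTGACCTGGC
KEAP1, chr19:10502772-10502855, minus strand: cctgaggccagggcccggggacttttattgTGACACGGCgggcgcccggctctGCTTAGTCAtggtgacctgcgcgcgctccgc
GCLM, chr1:93909431-93909494, minus strand: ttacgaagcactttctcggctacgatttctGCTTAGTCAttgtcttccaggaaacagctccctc
GSTP1, chr11:67583716-67583784, plus strand: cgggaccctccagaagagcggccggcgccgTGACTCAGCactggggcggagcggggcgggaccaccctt
ME1, chr6:83431150-83431218, minus strand: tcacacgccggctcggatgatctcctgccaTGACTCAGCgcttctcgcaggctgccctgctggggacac
TXNRD1, chr12:104286900-104286968, plus strand: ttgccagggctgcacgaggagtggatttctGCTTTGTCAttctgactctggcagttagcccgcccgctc
In GSTP1 and ME1 the match overlaps TGANTCA. In GCLM, the TXNRD1 window shown and the last of the 2 matches of KEAP1 the core lies on the opposite strand, and GCLM and KEAP1 share the letters GCTTAGTCA. Of the matched members 6 have more than 1 promoter in the table, and another promoter of TXNRD1 holds TGACTTCGC on the strand of the gene. The other members with a match were CBR1, CYP4F11, EPHX1, GPX2, GSTO1 and PGD.

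The arrays differed in a way the labels do not describe. The signals of 62 Affymetrix control probe sets, which report spiked-in and hybridisation controls, divided the arrays into 4 array groups. Array group 1 held the first array of each kind of control and M1 replicate 2. Array group 2 held replicate 2 of each kind of control and replicate 1 of each metastatic line. Array group 3 was made up of M1 replicate 3 and M4 replicates 2 and 3, and array group 4 of M5 replicates 2 and 3 alone. Across all genes every one of the 13 arrays correlated best with an array of its own array group, and 4 with an array of their own cell group. Each comparison is therefore given without a block and with the array groups as a block, where M5 rests on its first array alone. As markers of a carcinoma, KRT7, KRT8, KRT18 and KRT19 lay above the median of all genes on every array, while EPCAM and CDH1 lay below it on every array. Of 5 measured lung lineage markers SFTPC lay above the median on every array and 3 lay below it on every array. All 5 haematopoietic, 5 endothelial and 2 osteoblast markers measured lay below it on every array. Of 6 stromal markers COL1A1 and COL3A1 lay above it throughout and 4 below, and the mean of these 6 ran from 5.65 to 5.88 in control and from 5.71 to 6.07 in the lines. The mean of the 6 epithelial markers ran from 7.96 to 8.10 in control and from 7.65 to 7.97 in the lines, with 0 of them called in either fit, and its part in the results was not tested.

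Most of the members were well detected, and their median range over the arrays was close to that of all genes. Of the 35 members 32 lay above the array median on every array. The exceptions were GPX2 and CYP24A1, which were under the lower quartile on 10 and 11 arrays and on all 4 control arrays, and CES1, which was above the median on 5 arrays. The distance between a member's lowest and highest array ran from 0.21 to 3.00 log2 units with a median of 0.65, against a median of 0.65 over all genes. For 10 members it was under 0.5. For 9 of 35 members it was above 1, a larger share than the 15.3% of all genes, which was not tested. The array groups accounted for more of the sum of squares than the 5 cell groups did in 26 of 35 members and in 74.8% of all genes. Array groups and cell groups overlap in part, so these shares are not separate effects.

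**Figure D1:**
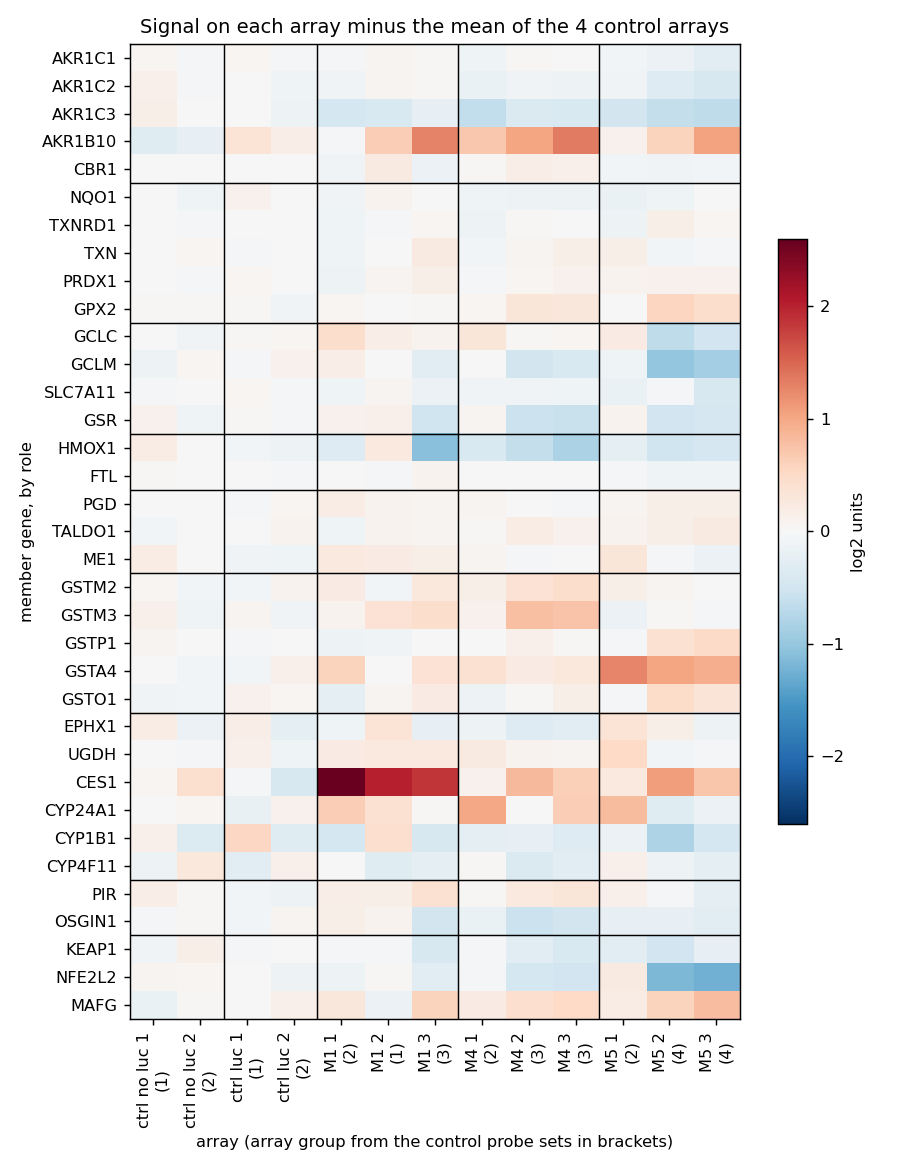
The map shows the log2 signal of each of the 35 members (rows, in order of role) on each of the 13 arrays (columns, by cell group, with the array group in brackets), minus the mean of the 4 control arrays. CES1 stands out on all 3 M1 arrays and GSTA4 on all 3 M5 arrays, AKR1C3 is lower on all 9 metastatic arrays, and NFE2L2, GCLC and GCLM are low on M5 replicates 2 and 3 but not on M5 replicate 1.

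Few members passed the test in any comparison. A member was called at a limma p under 0.05 after Benjamini-Hochberg adjustment over all 11963 genes. Counts are out of 35 members. For M1 against control 1 member was called, CES1, while 0.0251% of all genes were called. For M4 against control 0 were called (0.092% of all genes). For M5 against control 2 were called, GSTA4 higher and AKR1C3 lower, against a background of 2.37%. The mean of the 3 lines gave 0 calls (0.0251% of all genes). At an unadjusted limma p under 0.05 there were 4 of 35 members in M1, 7 in M4, 10 in M5 and 7 for the mean. These were larger shares than the 3.08%, 6.91%, 18% and 8.16% of all genes, a difference that was not tested. Because the members were chosen with earlier results of these data known, the larger shares are no evidence about them. Between lines, 0 members differed between M4 and M1 (0.0251%) and 1 between M5 and M4, GSTA4 (2.16%). For M5 against M1 2 differed, GSTA4 and CES1 (1.23%). Unadjusted, M4 against M1, M5 against M1 and M5 against M4 gave 1, 8 and 3 of 35 members under 0.05. Among all genes 2.83%, 14.8% and 15.1% did so. Between the 2 kinds of control limma called 0 members and 0% of genes, and 0 members had an unadjusted p under 0.05.

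With the array groups as a block the counts stayed small. In M1 1 member was called, CES1 (0.234% of all genes), in M4 1, AKR1C3 (0.15%), and in M5 2, GSTA4 and UGDH (1.98%). The mean of the lines gave 3, AKR1C3, GSTA4 and CYP24A1 (0.527%). Between lines CES1 differed between M4 and M1 (0.117%), GSTA4 and CES1 between M5 and M1 (1.61%), and GSTA4 between M5 and M4 (1.85%). Between the kinds of control limma again called 0 members (0.0167% of all genes), and 1 member had an unadjusted p under 0.05. Leaving out M5 replicate 1 without the block raised the count of M5 against control from 2 to 11, M5 against M1 from 2 to 9, M5 against M4 from 1 to 6 and the mean of the lines from 0 to 4. The same fits called 25.6%, 19.8%, 20.4% and 2.44% of all genes. The 11 members were CES1, GSTA4, GSTP1, GSTO1, GPX2 and MAFG, and AKR1C2, AKR1C3, GCLC, GCLM and NFE2L2. In that setting M5 is represented by array group 4, which holds no other cells, so line and array group cannot be told apart.

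CES1 was higher in M1 than in every other group. This carboxylesterase cleaves ester and amide bonds of drugs and lipids. Its log2 signal on the 3 M1 arrays was 8.05, 7.50 and 7.33. Controls without luciferase were at 5.52 and 5.90 and controls with luciferase at 5.44 and 5.05. M4 was at 5.59, 6.33 and 6.10, and M5 at 5.73, 6.57 and 6.20. Every M1 array lay above all 10 other arrays, and M4 and M5 overlapped with control. CES1 rose 4.42-fold in M1 against control (log2 difference 2.15 ± 0.24, SE; adjusted p = 0.00769), and 4.32-fold with the block (2.11 ± 0.23; adjusted p = 0.00353). Within array groups 1 and 2 the M1 array was 2.01 and 2.57 log2 units above the control arrays. M5 was 2.74-fold lower than M1 (-1.46 ± 0.25; adjusted p = 0.0194), and -1.89 ± 0.34 with the block (adjusted p = 0.029). M4 was at -1.62 ± 0.25 from M1 (adjusted p = 0.0656). This was a call with the block (-1.66 ± 0.25; adjusted p = 0.0333), with an intensity trend and robust prior (adjusted p = 0.0368), or without M5 replicate 1 (adjusted p = 0.016). The call in M1 was lost without control without luciferase replicate 1 (2.05; adjusted p = 0.0626), without M1 replicate 1 (1.93; adjusted p = 0.0643) and against controls without luciferase alone (1.92; adjusted p = 0.0507). M5 against M1 lost its call without M1 replicate 1, M1 replicate 2 or M5 replicate 3, at -1.24, -1.52 and -1.47 (adjusted p = 0.0815, 0.0566 and 0.0915). That call was also lost with only the arrays of M1 and M5 in the fit. Of the stromal markers COL3A1 was called, and none of the others in either fit. With the block COL3A1 was 1.42 ± 0.17 higher in M1 than in control (adjusted p = 0.00521), and without the block this was not a call. In M5 against M1 it was at -1.72 ± 0.32 without the block (adjusted p = 0.0226) and at -1.535 ± 0.258 with it. The part of COL3A1 in the values of CES1 was not tested. CES1 has a single probe set, of the kind that Affymetrix marks as shared by several transcripts.

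GSTA4 was higher in M5 than in control, M1 and M4. It is an alpha-class glutathione transferase that conjugates 4-hydroxynonenal, a product of lipid peroxidation. The M5 arrays were at 8.18, 7.93 and 7.85, above all 10 other arrays. Controls without luciferase were at 6.93 and 6.84, and those with luciferase at 6.84 and 7.04. M1 was at 7.49, 6.90 and 7.29, and M4 at 7.31, 7.11 and 7.17. GSTA4 rose 2.11-fold in M5 against control (1.08 ± 0.14; adjusted p = 0.00291), and 2.22-fold with the block (1.15 ± 0.17; adjusted p = 0.00858). The call held without each of the 13 arrays, with log2 differences from 0.98 to 1.15. Against M1 the M5 difference was 0.76 ± 0.15 (adjusted p = 0.031), and against M4 0.79 ± 0.15 (adjusted p = 0.0178). With the block these were 0.84 ± 0.17 and 0.92 ± 0.18 (adjusted p = 0.042 and 0.0331). In array group 2, which holds every cell group, M5 lay 1.25 above control, 0.69 above M1 and 0.87 above M4.

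The differences of GSTA4 between lines were less stable than its rise over control. With only the arrays compared in the fit, neither was called (limma adjusted p = 0.282 against M1 and 0.0617 against M4). M5 against M4 was lost without M4 replicate 2 (0.75; adjusted p = 0.102), M4 replicate 3 (0.78; adjusted p = 0.0774) or M5 replicate 3 (0.85; adjusted p = 0.0509). M5 against M1 lost its call in 8 of the 13 fits that leave out an array. It fell to 0.60 without M1 replicate 2 (adjusted p = 0.0991), and was 0.79 without M1 replicate 3, 0.79 without M5 replicate 2 and 0.83 without M5 replicate 3 (adjusted p = 0.0833, 0.0986 and 0.0915). Without either control array lacking luciferase it stayed at 0.76 (adjusted p = 0.052 for both), as without M4 replicate 2 or 3 (adjusted p = 0.0548 and 0.0569). For the mean of the lines GSTA4 was at 0.56 ± 0.11, called with the block (adjusted p = 0.0473) and not without it (adjusted p = 0.105). That mean was called without M5 replicate 1 (0.53; adjusted p = 0.0238) or M1 replicate 2 (0.62; adjusted p = 0.038).

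AKR1C3 was lower in the metastatic lines. This aldo-keto reductase reduces prostaglandins, steroids and drug carbonyls. Controls without luciferase were at 12.77 and 12.61 and controls with luciferase at 12.64 and 12.49. M1 was at 12.18, 12.23 and 12.42, M4 at 11.98, 12.25 and 12.23, and M5 at 12.14, 12.00 and 11.96. All 9 metastatic arrays lay below all 4 control arrays, as no other member did, in either direction; 0.602% of all genes separate in this way. In M5 AKR1C3 fell 1.51-fold without the block (-0.60 ± 0.11; adjusted p = 0.0148), and with it the value was -0.43 ± 0.11 (adjusted p = 0.0704). In M4 it was at -0.47 ± 0.11 without the block (adjusted p = 0.209) and fell 1.51-fold with it (-0.59 ± 0.09; adjusted p = 0.0312). In M1 it was at -0.35 ± 0.11 and -0.42 ± 0.07, not called (adjusted p = 1 and 0.0542). The mean of the lines was -0.47 ± 0.08 (adjusted p = 0.0704) and, with the block, -0.48 ± 0.07, a call (adjusted p = 0.0107). It was called without M5 replicate 1 too (-0.49; adjusted p = 0.0152). Within array groups the M1 array was 0.48 and 0.38 below control (-0.48 and -0.38), and M4 and M5 were at -0.57 and -0.42. The call in M5 was lost without replicate 1 of either kind of control, M5 replicate 2 or M5 replicate 3, at differences of -0.56, -0.56, -0.58 and -0.56 (adjusted p = 0.0608, 0.065, 0.0643 and 0.0784). It was also lost against controls with luciferase alone (-0.54; limma adjusted p = 0.0924). The same held with only the arrays of M5 and control in the fit (-0.60; limma adjusted p = 0.102).

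**Figure D2:**
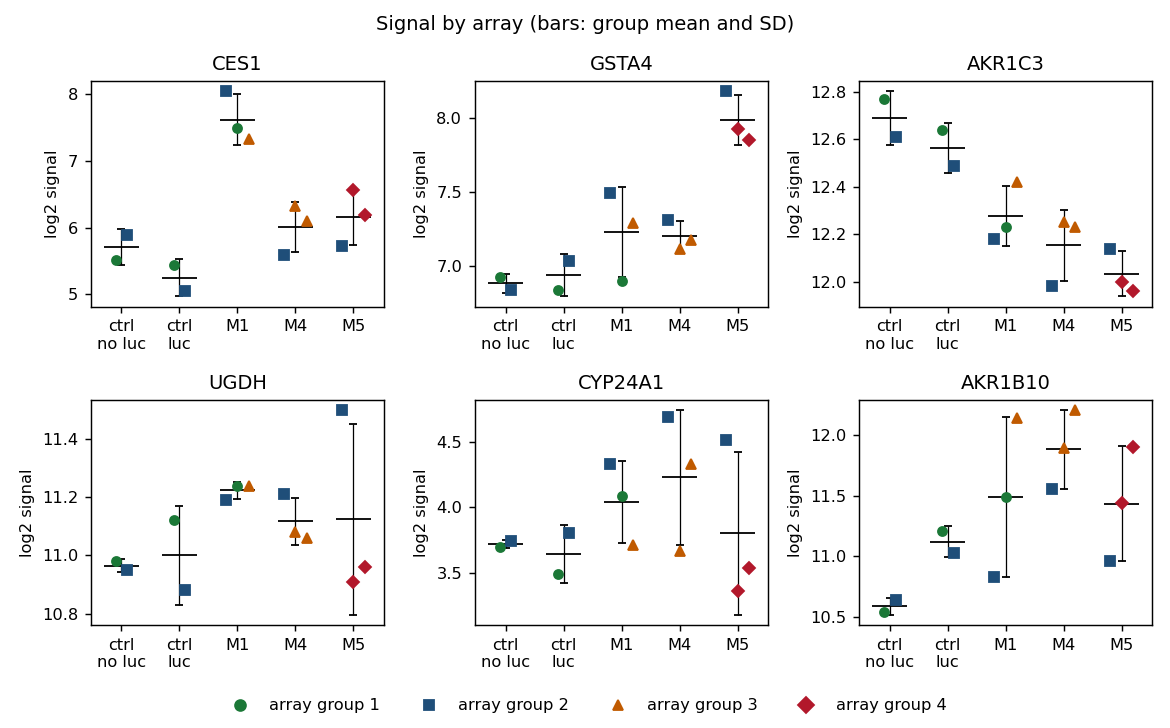
Each panel plots the log2 signal (y axis, which does not start at 0) of 1 member on each array against the cell group (x axis). Symbols give the array group, and bars the group mean and SD of 2 or 3 arrays. CES1 is high in M1 at 7.33 to 8.05, GSTA4 is high in M5 at 7.85 to 8.18, and AKR1C3 is below 12.49 on every metastatic array, while UGDH in M5 reads 11.50 on the array of array group 2 and 10.91 and 10.96 on the others.

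UGDH and CYP24A1 were called against control with the array groups as a block and not without it. UGDH makes UDP-glucuronate, the sugar donor for glucuronidation. Control arrays ran from 10.88 to 11.12, M1 was at 11.19, 11.24 and 11.24, and M4 at 11.21, 11.08 and 11.06. M5 was at 11.50 on its first array and at 10.91 and 10.96 on the others, which lie within the control range. The difference of M5 from control was 0.55 ± 0.12 with the block (adjusted p = 0.0437), 0.14 ± 0.13 without it (adjusted p = 0.606) and -0.047 without M5 replicate 1. CYP24A1 hydroxylates and inactivates vitamin D. It lay at 3.49 to 3.80 on the control arrays, and at 4.33, 4.09 and 3.71 in M1. M4 was at 4.69, 3.67 and 4.33, and M5 at 4.51, 3.36 and 3.53. Its highest signals in each line were therefore on the arrays of array group 2, and these signals are near the bottom of the array, so the fold is not exact. The mean of the lines differed by 0.71 ± 0.13 when blocked (adjusted p = 0.0473) and by 0.34 ± 0.22 otherwise (adjusted p = 0.754). Without a block CYP24A1 was among the members called for M5 against M4 when M5 replicate 1 was left out. In array group 2 M1, M4 and M5 were 0.56, 0.91 and 0.74 above control.

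None of the other xenobiotic enzymes was called over all 13 arrays. EPHX1, the microsomal epoxide hydrolase, was at 10.57 on M5 replicate 1 and at 10.06 and 9.99 on the control arrays of the same array group. Its M5 difference was 0.56 ± 0.13 with array groups as a block (adjusted p = 0.06) and 0.13 ± 0.17 otherwise. CYP1B1, a cytochrome P450 that oxidises polycyclic hydrocarbons and oestrogens, was at 10.01, 10.40 and 10.30 on the 3 arrays of array group 1 and between 9.06 and 9.71 on all others. CYP4F11, a fatty acid omega-hydroxylase, ranged from 7.43 to 8.10, and its 5 highest values were the 5 arrays of array group 2.

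The other carbonyl reductases showed no called difference in the fits over all 13 arrays. AKR1B10, which reduces retinal and other aldehydes, was at 10.54 and 10.64 in controls without luciferase and 11.21 and 11.03 in those with it. M1 was at 10.83, 11.49 and 12.14, M4 at 11.55, 11.89 and 12.20, and M5 at 10.96, 11.44 and 11.90. Its difference in M4 was 1.03 ± 0.28 (adjusted p = 0.363) and 0.59 ± 0.21 with the block (adjusted p = 0.532), and all 3 M4 arrays lay above all 4 controls. With only the arrays of M4 and control in the fit AKR1B10 was called, with 0.276% of all genes. AKR1C1 and AKR1C2, hydroxysteroid dehydrogenases whose transcripts are close to each other, were nearly level at 13.33 to 13.71 and 12.95 to 13.51. Both are read by probe sets that Affymetrix marks as able to bind other transcripts, so their signals are not separate measurements. A dimmer AKR1C1 probe set, at a mean of 7.75, differed from control by 0.38 for M1, 0.40 for M4 and -0.074 for M5, and the last turned to 0.43 with the block. CBR1, a quinone and prostaglandin reductase, stayed within 10.04 to 10.42.

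The antioxidant and NADPH-supplying enzymes other than GPX2 were among the members that varied least. NQO1, which reduces quinones by 2 electrons, ran from 12.89 to 13.19 over the 13 arrays. On the probe set used, its largest difference from control was -0.12 ± 0.09 in M4, and its 2 other probe sets were at -0.10 and 0.017 there. In M5 these 2 were at -0.23 and -0.092, and at -0.20 and -0.035 with the block. TXNRD1, which reduces thioredoxin, ran from 12.50 to 12.79, thioredoxin itself (TXN) from 12.73 to 13.08, and the peroxidase PRDX1 from 13.20 to 13.50. In the pentose phosphate pathway PGD stayed within 11.35 to 11.59 and TALDO1 within 11.94 to 12.28. ME1, the cytosolic malic enzyme, stayed within 10.25 to 10.72. The ferritin light chain FTL ran from 13.86 to 14.07. GPX2, a glutathione peroxidase of epithelia, was dim at 4.17 to 4.82 and highest on M5 replicates 2 and 3. HMOX1, which opens the haem ring, varied more. It was at 7.85 to 8.17 in control, 7.65, 8.24 and 6.89 in M1, 7.59, 7.36 and 7.16 in M4, and 7.75, 7.46 and 7.56 in M5. All M4 and M5 arrays lay below control, yet no difference was called, at -0.61 ± 0.24 in M4 (adjusted p = 0.616) and -0.041 with the block.

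Of the other glutathione transferases, which join glutathione to electrophiles, none was called over all 13 arrays. Without M4 replicate 1 GSTM3 was called for M5 against M4. GSTM3 was at 12.02 and 11.99 on M4 replicates 2 and 3 and 11.71 on M1 replicate 3, above all arrays outside array group 3, and at 11.35 on M4 replicate 1. Its difference in M4 was 0.54 ± 0.16 (adjusted p = 0.428) and 0.33 ± 0.10 with the block (adjusted p = 0.406). GSTM2 likewise was highest in array group 3 at 8.92 to 9.10, against at most 8.85 elsewhere. Its probe set, like those of AKR1C1 and AKR1C2, is marked as able to bind other transcripts, so its signal may not be its own alone. GSTP1 was at 10.71 and 10.81 on M5 replicates 2 and 3, and between 10.18 and 10.43 on all other arrays, M5 replicate 1 included at 10.26. GSTO1 had the same form, at 11.91 and 11.78 against at most 11.66.

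**Figure D3:**
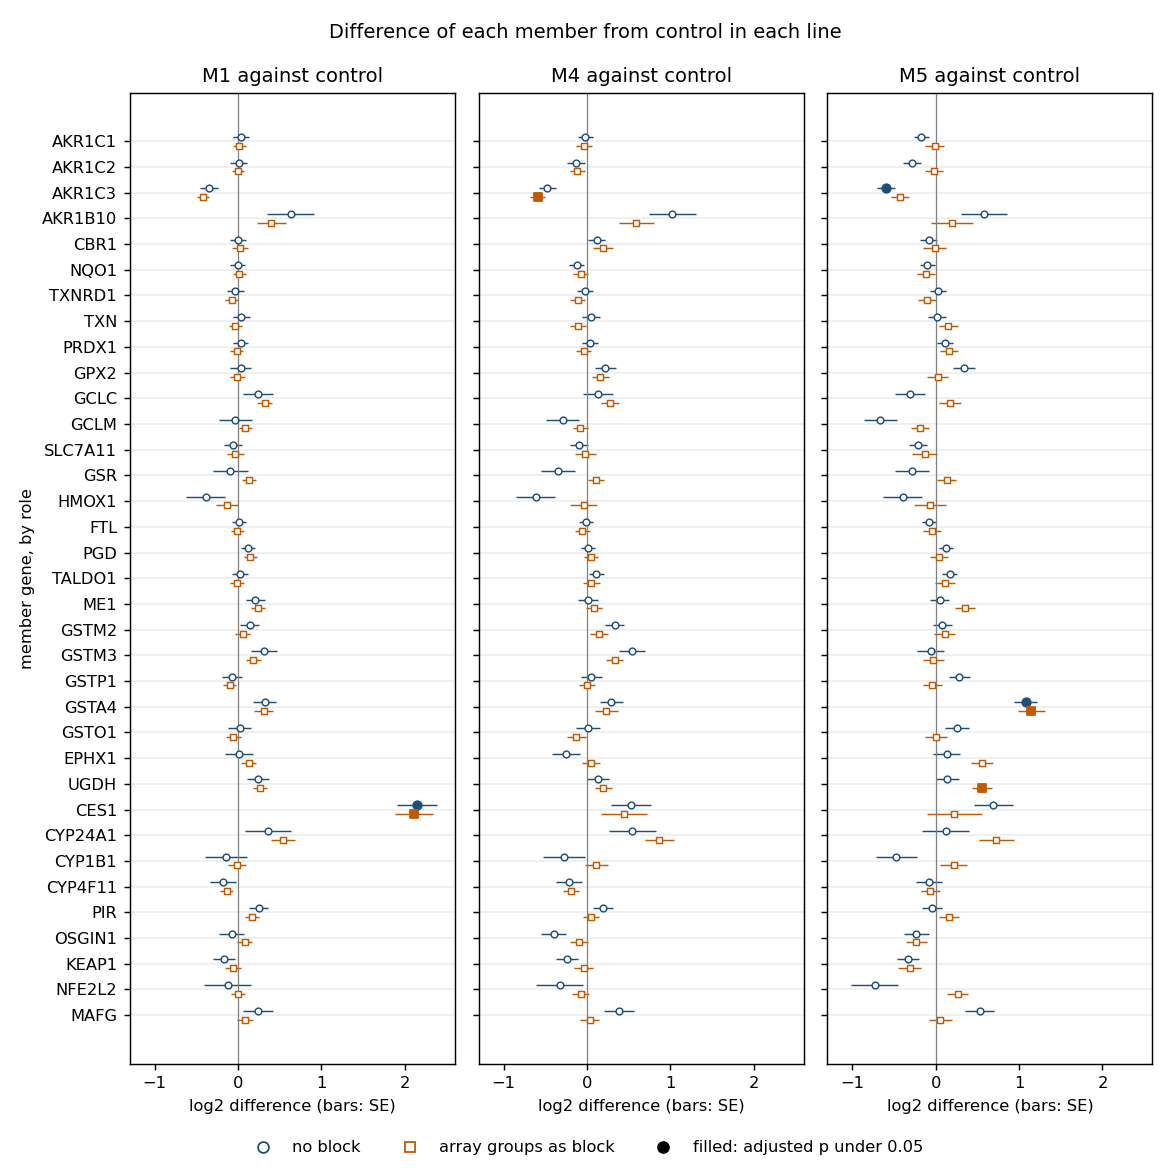
The log2 difference of each of the 35 members from the control mean (x axis) is drawn for M1, M4 and M5, with limma's SE as bars, without a block (circles) and with the array groups as a block (squares). Filled symbols mark an adjusted p under 0.05: CES1 in M1 in both fits, GSTA4 in M5 in both, AKR1C3 in M5 without and in M4 with the block, and UGDH in M5 with the block alone.

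For the regulators and the genes of glutathione synthesis the array groups accounted for more of the variation than the lines did, by little for SLC7A11. The gene of NRF2, NFE2L2, was at 9.75 and 9.73 in controls without luciferase and 9.67 and 9.54 in those with it. M1 was at 9.54, 9.71 and 9.39 and M4 at 9.64, 9.22 and 9.18. M5 was at 9.90 on its first array, the highest of all 13, and at 8.50 and 8.42 on the others, the lowest of all. Its difference in M5 was -0.73 ± 0.28 (adjusted p = 0.203) and 0.26 ± 0.12 with the block (adjusted p = 0.338), so the sign turns with the array. GCLC, the catalytic subunit of glutamate-cysteine ligase, was at 9.59 to 9.73 in control. It was at 10.14, 9.85 and 9.77 in M1 and at 10.00, 9.71 and 9.73 in M4. M5 was at 9.89, 9.02 and 9.19. The modifier subunit GCLM was at 10.58 to 10.82 in control, at 10.88, 10.70 and 10.43 in M1, and at 10.71, 10.23 and 10.30 in M4. M5 was at 10.60, 9.70 and 9.81. In M5 GCLM was at -0.66 ± 0.20 (adjusted p = 0.113), or -0.19 ± 0.11 when array groups were a block (adjusted p = 0.46), and GCLC at -0.31 ± 0.18 and 0.17 ± 0.13 (adjusted p = 0.382 and 0.622). The levels of NFE2L2, GCLC and GCLM were thus lower on 2 of 3 M5 arrays and not on the third.

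KEAP1 and MAFG were not called in any comparison over all 13 arrays, with or without the block. KEAP1 was at 8.86 and 9.10 in controls without luciferase and 8.90 and 8.96 in those with it. M1 was at 8.91, 8.91 and 8.53, M4 at 8.93, 8.65 and 8.56, and M5 at 8.68, 8.46 and 8.73. All M5 arrays lay below all controls, and the difference was -0.33 ± 0.13 (adjusted p = 0.217) and -0.31 ± 0.14 with the block (adjusted p = 0.302). MAFG was at 7.63 and 7.83 in controls without luciferase and at 7.83 and 7.94 in those with it. M1 was at 8.10, 7.65 and 8.39, M4 at 8.01, 8.24 and 8.32, and M5 at 8.0, 8.39 and 8.61. Its differences of 0.38 ± 0.18 in M4 and 0.53 ± 0.18 in M5 shrank to 0.035 and 0.056 with the block. GSR, which regenerates reduced glutathione, was at 9.67 to 9.93 on all 8 arrays of array groups 1 and 2 and at 9.21 to 9.35 on all 5 arrays of array groups 3 and 4. Array groups accounted for 95.5% of the sum of squares of GSR, 95.3% of NFE2L2, 95.1% of GCLM and 91.3% of MAFG, and the 5 cell groups for 25.8%, 39.5%, 54.8% and 50.2%. For GCLC the shares were 79.5% and 48.8%, for KEAP1 69.7% and 46.8%, and for SLC7A11 44.2% and 41.6%, beside 63.9% and 41.9% over all genes. SLC7A11, the cystine transporter, was steadier, at 10.98 to 11.23 on 12 arrays and 10.73 on M5 replicate 3. PIR, a quercetin-degrading iron protein, and OSGIN1, an oxidative stress-induced growth inhibitor, were highest and lowest in array group 3, respectively.

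**Figure D4:**
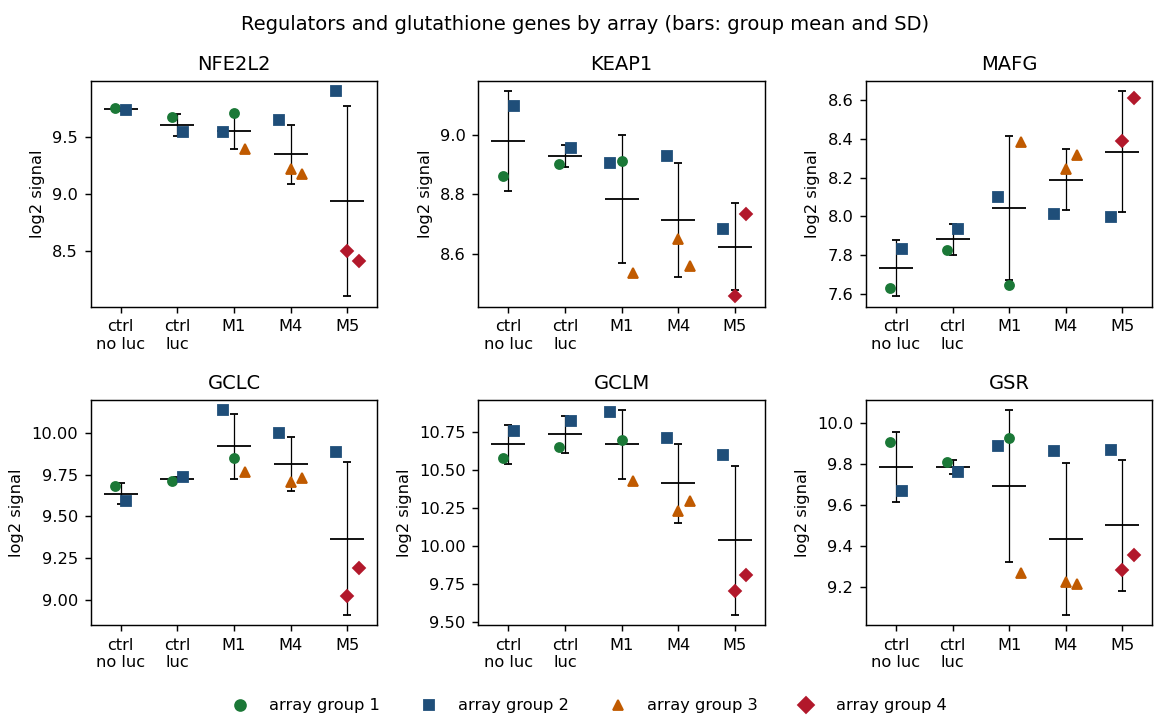
The log2 signal (y axis, which does not start at 0) of NFE2L2, KEAP1, MAFG, GCLC, GCLM and GSR is plotted by array and cell group (x axis), with symbols for the array group and bars for the group mean and SD of 2 or 3 arrays. NFE2L2 reads 9.90 on the M5 array of array group 2 and 8.50 and 8.42 on those of array group 4, and GSR separates array groups 1 and 2 from 3 and 4 in every line.

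Some members separated an array group from all other arrays. On both arrays of array group 4, M5 replicates 2 and 3, 4 members were above all other arrays (GPX2, GSTP1, GSTO1 and MAFG) and 6 below (AKR1C1, AKR1C2, GCLC, GCLM, FTL and NFE2L2). That is 10 of 35 members, and 30.6% of all genes did so. In array group 3 there were 6 of 35 members, GSTM2, GSTM3 and PIR above and GSR, HMOX1 and OSGIN1 below. This was a larger share than the 4.98% of all genes, and the difference was not tested. Array group 1 had 3 of 35, AKR1C1, CYP1B1 and MAFG, beside 5.38% of all genes. Array group 2 had 1 of 35, CYP4F11, beside 4.36%.

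Members whose line did not overlap with control were counted next, in either direction. In M1 5 of 35 members separated (AKR1C3, GCLC, PGD, UGDH and CES1), and 5.94% of all genes did. In M4 there were 11 of 35 members, 6 above and 5 below, and 11.4% of all genes. In M5 there were 12 of 35 members, 5 above and 7 below, and 12.2% of all genes. The share of members was larger than that of all genes in each of these comparisons, and this was not tested. The members were chosen with earlier results of these data known, so a larger share is no evidence about them. They are also brighter than all genes, as 32 of the 35 lay above the array median on every array. These comparisons share the 4 control arrays. The median log2 difference of the members was 0.02 for M1, 0.012 for M4 and -0.044 for M5, beside -0.0078, -0.0011 and 0.031 over all genes, and with the block it was 0.015, 0.035 and 0.043, beside -0.015, -0.012 and -0.017. As many as 21, 19 and 17 of the 35 members were above 0 in M1, M4 and M5 without the block. As a median of absolute differences the members were at 0.12, 0.21 and 0.21, and all genes at 0.08, 0.094 and 0.15.

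Beyond the members, a list of 90 other genes of NRF2 signalling, redox defence and xenobiotic handling held 74 measured genes. In M1 against control limma called 0. Of the 74, 6 in M1, 12 in M4 and 21 in M5 had an unadjusted limma p under 0.05. Among all genes 3.08%, 6.91% and 18% did, a smaller share in each line, and this was not tested. The list was chosen with earlier results of these data known, so its larger share is no evidence about these genes. In M4 2 rose: ABCG2, a drug efflux transporter, 2.49-fold (adjusted p = 0.0247), and ALDH1A1, a retinal dehydrogenase, 6.35-fold (adjusted p = 0.0404). In M5 ALDH1A1 rose 6.02-fold (adjusted p = 0.00723), while 3 fell. These were the glutathione peroxidase GPX1, 1.58-fold (adjusted p = 0.0177), the fatty aldehyde dehydrogenase ALDH3A2, 1.38-fold (adjusted p = 0.0293), and the efflux transporter ABCC5, 1.44-fold (adjusted p = 0.0374). ALDH1A1 was at 9.82 and 9.42 in controls without luciferase and 7.23 and 7.29 in those with it, so its fold depends on the kind of control. With the block ABCG2 and ALDH1A1 were the 2 called in M4 and in M5, and CYP2J2, an arachidonic acid epoxygenase, fell 1.53-fold in M1 (adjusted p = 0.0146). The list's median difference was 0.07 in M4 and 0.065 in M5 without the block, against -0.0011 and 0.031 over all genes. With the block it was -0.022 and 0.064, against -0.012 and -0.017.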

How the data were processed

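The members and gene lists were chosen with earlier results of these data known. The authors deposited 1 log2 signal for each of 22277 probe sets and array, and per the submitters' processing notes the method was RMA, version not given in the sources used here. Of the probe sets, 62 are controls, 19064 name 1 gene in the platform annotation, 1043 name several and 2108 name none. The 19064 gave 11963 genes, each read by its brightest probe set. No filter on signal was applied.

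For each gene limma 3.58.1 (lmFit, eBayes; R 4.3.3) fitted 5 group means over all 13 arrays, with control as the mean of both kinds. A call is an adjusted p under 0.05, by Benjamini-Hochberg over the 11963 genes. SEs are limma's, and a fold is the unlogged difference. The code was tested on simulated data. Array groups came from Ward clustering of the control probe sets into 4. Replicate numbers were not taken to pair the arrays: 7 of 23 same-numbered pairs correlated above 0.1 (r from -0.51 to 0.53), although 8 of 13 arrays deviated most like one of the same number. The number of arrays limits the precision. Values on every array are given for each member called in either fit, and for KEAP1, NFE2L2 and MAFG. Other members shown by array were chosen after their values were seen. Alternatives were the array groups or replicate number as a block, probe set means, bright genes only, median centring, an intensity trend with a robust prior, only the arrays compared, either control alone, and leaving out each array.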

Additional observations from a re-analysis of the deposited data

Results flagged for a closer look

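The direct tests between lines gave differing effects for 2 members. GSTA4 differed from control by more in M5 than in M1, with a log2 difference of 0.76 between these lines (limma adjusted p = 0.031), and by more than in M4, with 0.79 (adjusted p = 0.0178), all 3 M5 arrays being above all arrays of the other lines. CES1 differed by -1.46 between M5 and M1 (adjusted p = 0.0194), with all 3 M5 arrays below all M1 arrays.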

How the results depend on the processing

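The counts of called members are given in the order mean of the lines, M1, M4 and M5 against control, M4 against M1, M5 against M1, M5 against M4, where they were 0, 1, 0, 2, 0, 2 and 1. With the array groups as a block they were 3, 1, 1, 2, 1, 2 and 1. Median centring gave 1 for the mean of the lines (AKR1C3), and the intensity trend with a robust prior 2 there (AKR1C3 and CES1), 1 in M4 (AKR1C3) and 1 for M4 against M1 (CES1). Fitting only the arrays compared gave 1 in M4 (AKR1B10), 1 in M5, 0 for M5 against M1 and 0 for M5 against M4. Against controls without luciferase alone M1 had 0, and against those with it M5 had 1. With the replicate number as a block, probe set means or bright genes alone, each count was within 1.5 times its value above, and the replicate block gave 2 in M5 and 1 in M1. Leaving out single arrays gave 0 to 4, 0 to 1, 0, 1 to 11, 0 to 1, 0 to 9 and 0 to 6, the highest of the mean and of each M5 comparison without M5 replicate 1, where 2.44% (mean), 25.6%, 19.8% and 20.4% of all genes were called. Between the kinds of control the count was 0 throughout. Of 12 differences of called members, 11 kept their sign in every alternative run, and UGDH in M5 turned to -0.047 without M5 replicate 1 (range 0.25 down to that value over single arrays left out). Signals near the lower end of the array limit CYP24A1 and GPX2.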
